A study of Mus musculus with 6 samples.

Results

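The 10 genes described here encode receptors, adaptors and the transcription factor through which cells sense microbial products and nucleic acids. They are Tlr2, Tlr3, Tlr4, Tlr7, Myd88, Ticam1, Tmem173, Mb21d1, Mavs and Irf3, chosen by symbol from the 18058 genes of the deposited table, and all 10 were found there. Their transcripts were measured by RNA sequencing of whole brainstem from mice 1 month of age, with 3 wild-type (WT, C57BL/6J) mice and 3 mice of the Rag1-/- strain B6.129S7-Rag1tm1Mom/J, which is used as a host for human cell implants. The Rag1 protein cuts DNA so that antigen receptors can be assembled, and mice without it lack mature T and B cells. The question for these genes was whether the innate sensing machinery of the brainstem differed between a host with and a host without adaptive immunity.

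Toll-like receptors are membrane proteins that bind bacterial lipids and proteins at the cell surface, or nucleic acids inside endosomes. Most of them signal through the adaptor MyD88, and TLR3 signals through the adaptor TRIF, the product of Ticam1, which TLR4 also uses. In the cytosol, RNA is bound by the helicases RIG-I and MDA5, which act through the mitochondrial adaptor MAVS, and DNA is bound by cGAS, the product of Mb21d1, whose cyclic dinucleotide activates STING, the product of Tmem173. The TRIF, MAVS and STING branches activate IRF3, which induces type I interferon and a first set of interferon-stimulated genes, and in the brain many of these receptors are known from microglia and astrocytes.

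Values are CPM, that is, the reads on a gene scaled to the size of its library. The libraries held an estimated 31600000 to 46400000 reads, at which 3 reads stand for 0.0646 to 0.095 CPM, and correlations between libraries across genes lay between 0.988 and 0.995. Rag1 stood at 0.236, 0.388 and 0.115 CPM in the WT brainstems (replicates 1, 2 and 3, the order used throughout) and at 2.6, 4.02 and 2.9 CPM in those labelled Rag1-/-, so its transcripts rose against the label (log2 fold change 3.30, SE 0.31, adjusted p = 0.012, limma-trend). This call was lost in 4 of 15 alternative settings, which gave adjusted p-values from 0.00275 to 0.192, and its groups did not overlap. These libraries are therefore named by their label, and each direction rests on it. Whether the counted part of Rag1 lies inside the disrupted part of the allele is not given in the sources used here. Xist, the X-inactivation transcript, reached 172 and 177 CPM in WT replicates 1 and 2, was 2.93 CPM in WT replicate 3 and was 0.462 to 0.738 CPM in the group labelled Rag1-/-, so the groups also differed in the makeup of the sexes. Of the 10 genes, Tlr7 is X-linked.

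None of the 10 genes differed between the groups at p of at most 0.05 before adjustment (limma-trend), and their adjusted p-values ran from 0.522 to 0.973. Over all 16762 genes tested, 9.29% were lower and 2.27% were higher in the group labelled Rag1-/- at this threshold, 11.6% in either direction, and 0.0477% (8 genes) passed an adjusted p under 0.05. For each of the 10, values of the groups overlapped. Such an absence of overlap was seen in the lower direction for 14.4% and in the higher direction for 3.98% of all genes tested. Of the 10 log2 fold changes, 7 were below 0 and 3 above, with a median of -0.10 against -0.05 over all genes tested. Over the 10 genes the 95% confidence intervals of the folds spanned 0.636 to 1.51. Folds throughout are on the log2(CPM + 0.1) scale, which understates changes of low transcripts.

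**Figure D1:**
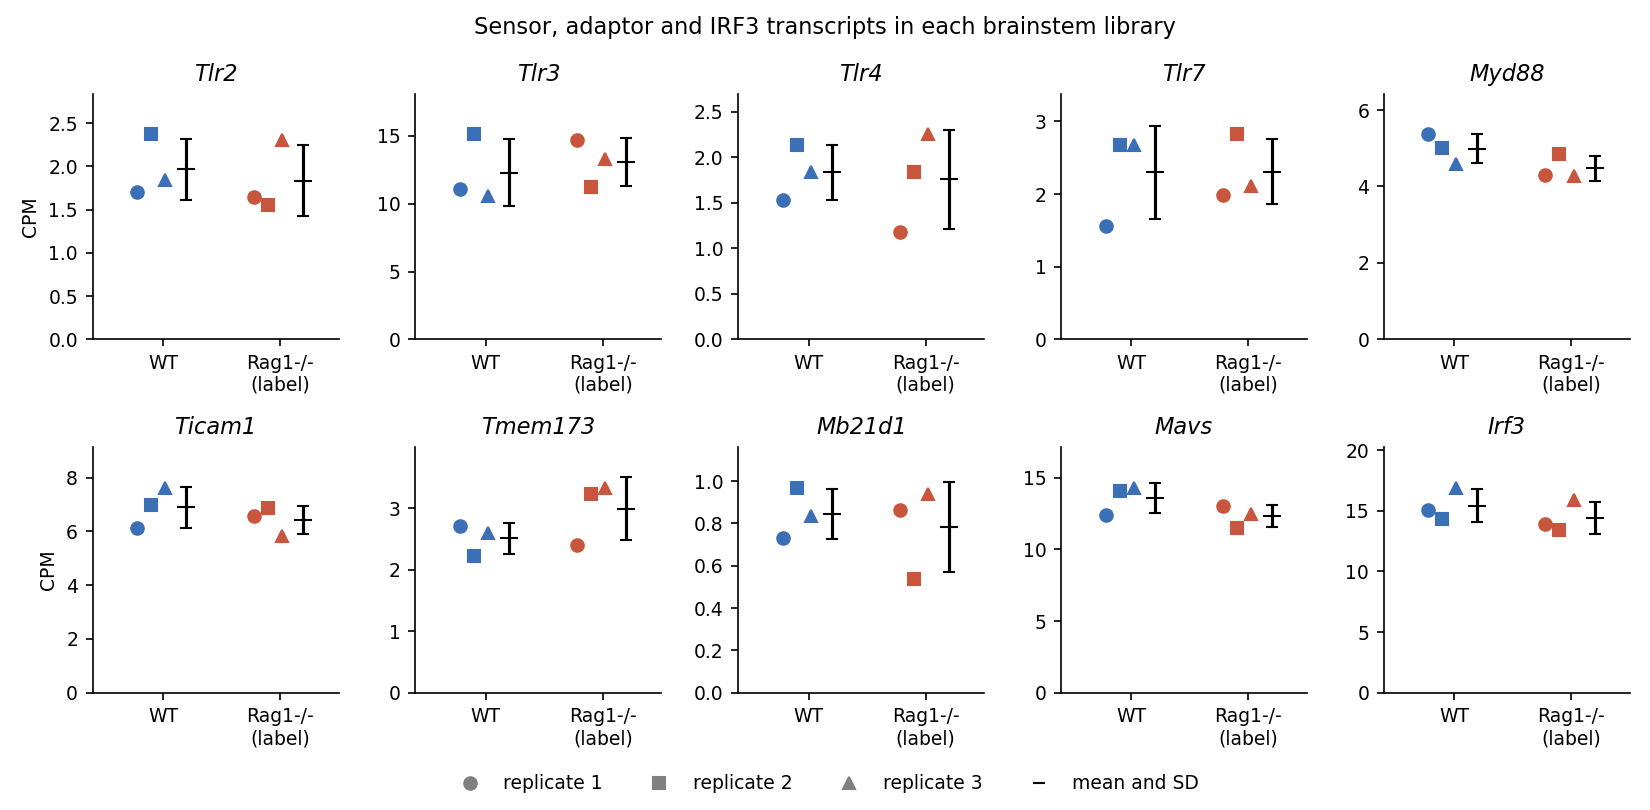
CPM (vertical axes, each starting at 0) of the 10 genes in each brainstem library, with WT in blue and the libraries labelled Rag1-/- in red; symbols mark the replicate number, and black bars give the mean and SD of 3 libraries. In every panel the values of the groups overlap, from Mb21d1 between 0.539 and 0.969 CPM to Irf3 between 13.4 and 16.9 CPM.

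Among the receptors of the cell surface, Tlr2 (chromosome 3, 83836272 to 83841608, minus strand, mm10) binds bacterial lipoproteins. It was at 1.7, 2.37 and 1.84 CPM in WT brainstem and at 1.65, 1.55 and 2.31 CPM in brainstem labelled Rag1-/-. One library of each group stood near 2.3 CPM, WT replicate 2 and Rag1-/- replicate 3, and the others lay together between 1.55 and 1.84 CPM. The log2 fold change was -0.10 (SE 0.19, adjusted p = 0.855, limma-trend), with an interval from 0.686-fold to 1.26-fold. Without WT replicate 2 it was 0.03.

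Tlr4 (chromosome 4, 66827551 to 66846581, plus strand) encodes the receptor for bacterial lipopolysaccharide. Its WT values were 1.53, 2.13 and 1.84 CPM, and those labelled Rag1-/- were 1.18, 1.84 and 2.25 CPM. The lowest and the highest of the 6 libraries both carried the Rag1-/- label, so the WT values lay inside the range of the other group. The log2 fold change of -0.09 (SE 0.23, adjusted p = 0.898, limma-trend) turned to 0.02 under quantile normalization and to 0.15 without Rag1-/- replicate 1.

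Tlr3 and Tlr7 encode endosomal receptors for double-stranded and single-stranded RNA. Tlr3 (chromosome 8, 45395665 to 45410539, minus strand) was at 11.1, 15.1 and 10.6 CPM in WT brainstem and at 14.7, 11.2 and 13.3 CPM in that labelled Rag1-/-. WT replicate 2 was the highest library and WT replicate 3 the lowest, with the other group between them. The log2 fold change was 0.10 (SE 0.15, adjusted p = 0.816, limma-trend), with an interval from 0.849-fold to 1.35-fold. With 1 library left out it ran from 0.002, without WT replicate 3, to 0.26, without WT replicate 2 (unadjusted p = 0.0598). Of its 4407 exonic bases, 117 are shared with an antisense gene, Gm45542, and whether the counting used strand is not given in the sources used here.

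Tlr7 (chromosome X, 167304926 to 167330571, minus strand) was at 1.56, 2.67 and 2.67 CPM in WT brainstem and at 1.99, 2.82 and 2.11 CPM in brainstem labelled Rag1-/-. WT replicate 1 was the lowest, while WT replicate 2, which also had high Xist, stood level with WT replicate 3. Its log2 fold change was 0.03 (SE 0.23, adjusted p = 0.973, limma-trend), and it was -0.22 with a term for high Xist in the fit, where the contrast rests on WT replicate 3 alone. The other X-linked receptors of the family were Tlr13, at 1.68, 2.35 and 1.98 CPM in WT and at 2.11, 2.03 and 2.31 CPM in the other group, and Tlr8. For Tlr8 the 3 values labelled Rag1-/- (0.0635 to 0.116 CPM) lay below the 3 WT values (0.118 to 0.201 CPM), but these values stand for 2 to 9 reads and the difference missed the threshold (unadjusted p = 0.112, adjusted p = 0.519, limma-trend). Of its 14 alternatives, Tlr8 passed the unadjusted threshold in 1, limma without trend (unadjusted p = 0.0205, adjusted p = 0.47).

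Promoters of Tlr2 and Tlr3 are shown because they hold the NF-kB consensus motif, the binding sequence of the factor that MyD88 signalling activates. Sequences are from RefSeq on GRCm38.p6, read 5′ to 3′ along the gene's strand and ending upstream of the transcribed region. The capitals mark the matches, of which 3 overlap in Tlr2. A further match in Tlr2 lies nearer to the start, outside the bases shown.
Tlr2, chr3:83841727-83841826, minus strand: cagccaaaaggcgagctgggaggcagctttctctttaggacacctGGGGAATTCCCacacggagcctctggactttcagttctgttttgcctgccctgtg
Tlr3, chr8:45410540-45410630, minus strand: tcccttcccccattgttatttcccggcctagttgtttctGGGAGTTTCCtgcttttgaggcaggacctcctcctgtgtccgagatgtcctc
Over all 32851 RefSeq promoters of the same length (250 bases before to 50 after a start), 4.51% held this motif on either strand, against 2 of the 7 promoters matched among the 10 genes. A match is a description of the letters and not an occupied site.

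Of the adaptors, Myd88, Ticam1 and Mavs had smaller standard errors than the 4 receptors. Myd88 (chromosome 9, 119335988 to 119340040, minus strand) was at 5.36, 5 and 4.6 CPM in WT brainstem and at 4.3, 4.85 and 4.27 CPM in brainstem labelled Rag1-/-. Of the 10 genes it came nearest to separation: only Rag1-/- replicate 2 lay above a WT library, WT replicate 3. This gave a log2 fold change of -0.15 (SE 0.11, adjusted p = 0.586, limma-trend), with an interval from 0.763-fold to 1.06-fold, and the two-sided exact permutation p was 0.2, where 0.1 is the smallest that 3 against 3 libraries allow. The log2 fold change of Myd88 was -0.0999 without WT replicate 1, -0.0712 with quantile normalization and -0.0413 with the term for high Xist, and its lowest unadjusted p in 15 alternatives was 0.0993 (limma-trend). Of its 1960 exonic bases, 223 (11.4%) are shared with Acaa1a on the opposite strand, so reads of the 2 genes there cannot be told apart if strand was not used.

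Myd88 was also the 1 gene among the 7 whose promoter held GAAANNGAAA, the core of the interferon-stimulated response element, on either strand, against 3.44% of all promoters. The capitals in the stretch below mark that match, 40 bases before the start.
Myd88, chr9:119340041-119340140, minus strand: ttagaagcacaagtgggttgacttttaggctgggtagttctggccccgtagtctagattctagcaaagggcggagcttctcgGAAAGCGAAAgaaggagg

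Ticam1 (chromosome 17, 56269462 to 56276767, minus strand) was at 6.11, 6.96 and 7.62 CPM in WT brainstem and at 6.56, 6.87 and 5.84 CPM in brainstem labelled Rag1-/-. WT replicate 3 was the highest and Rag1-/- replicate 3 the lowest, with the remaining 4 libraries mixed between them. Its log2 fold change was -0.10 (SE 0.11, adjusted p = 0.746, limma-trend), with an interval from 0.786-fold to 1.11-fold. It ran from -0.18 without WT replicate 1 to -0.02 without WT replicate 3.

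Mavs (chromosome 2, 131234063 to 131248024, plus strand) was at 12.4, 14.1 and 14.3 CPM in WT brainstem and at 13, 11.5 and 12.5 CPM in brainstem labelled Rag1-/-. WT replicate 1 was the exception to an otherwise lower group labelled Rag1-/-. At a log2 fold change of -0.14 (SE 0.08) Mavs had the smallest p of the 10 genes (unadjusted p = 0.115, adjusted p = 0.522, limma-trend), and its interval ran from 0.798-fold to 1.03-fold. With 1 library left out the log2 fold change of Mavs ran from -0.0926 without Rag1-/- replicate 2 (unadjusted p = 0.323, limma-trend) to -0.204 without WT replicate 1 (unadjusted p = 0.0402, limma-trend), the single one of its 15 alternatives to pass.

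The DNA-sensing pair went in opposite directions without passing the test. Mb21d1 (chromosome 9, 78430518 to 78443237, minus strand), which encodes the enzyme cGAS, was at 0.732, 0.969 and 0.834 CPM in WT brainstem and at 0.866, 0.539 and 0.94 CPM in brainstem labelled Rag1-/-. Rag1-/- replicate 2 was the lowest library, at 17 reads, and the other 5 lay between 29 and 45 reads. For Mb21d1 the log2 fold change was -0.12 (SE 0.23, adjusted p = 0.856, limma-trend), and without Rag1-/- replicate 2 it was 0.09.

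Tmem173 (chromosome 18, 35733678 to 35740554, minus strand), which encodes STING, was at 2.71, 2.22 and 2.59 CPM in WT brainstem and at 2.4, 3.23 and 3.33 CPM in brainstem labelled Rag1-/-. Rag1-/- replicates 2 and 3 lay above all WT libraries, and Rag1-/- replicate 1 lay among them. The log2 fold change of 0.23 (SE 0.16, adjusted p = 0.577, limma-trend) was the highest of the 10, with an interval from 0.917-fold to 1.51-fold. With 1 library left out the log2 fold change ran from 0.151 without Rag1-/- replicate 3 and 0.152 without WT replicate 2 (unadjusted p = 0.422 and 0.409, limma-trend) to 0.38 without Rag1-/- replicate 1 (unadjusted p = 0.0321, limma-trend), the single one of its 15 alternatives to pass the unadjusted threshold.

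Irf3 (chromosome 7, 44997648 to 45002848, plus strand), on which these branches converge, was at 15.1, 14.3 and 16.9 CPM in WT brainstem and at 13.9, 13.4 and 15.9 CPM in brainstem labelled Rag1-/-. In both groups replicate 3 was the highest and replicate 2 the lowest. The resulting log2 fold change was -0.10 (SE 0.09, adjusted p = 0.678, limma-trend), with an interval from 0.812-fold to 1.07-fold. It ran from -0.17 without Rag1-/- replicate 3 to -0.03 without WT replicate 3.

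Levels of different genes were compared per kilobase of exon (CPM per kb, mean of 6 libraries). Irf3 stood first at 7.36 CPM per kb, followed by Mavs at 4.19, with no overlap between the ranges of the 2 genes or between Mavs and Tlr3 at 2.87. Tlr3, Myd88 (2.41) and Ticam1 (2.23) overlapped from neighbour to neighbour, and all 3 lay above Tmem173 at 1.19, which in turn lay above Tlr2 at 0.631 in all 6 libraries. Tlr2, Tlr7 (0.587), Tlr13 (0.511), Tlr4 (0.441) and Tlr9 (0.415) overlapped along this order. Mb21d1 was at 0.201 CPM per kb, the lowest of the 10 genes, and its range overlapped those of Tlr5 (0.232) and Tlr12 (0.192). The lowest receptors of the family were Tlr1 (0.109), Tlr6 (0.0757) and Tlr8 (0.0373). In CPM, not corrected for length, Irf3 lay at the 50.2 percentile of all genes tested and Mb21d1 at the 14.8 percentile.

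**Figure D2:**
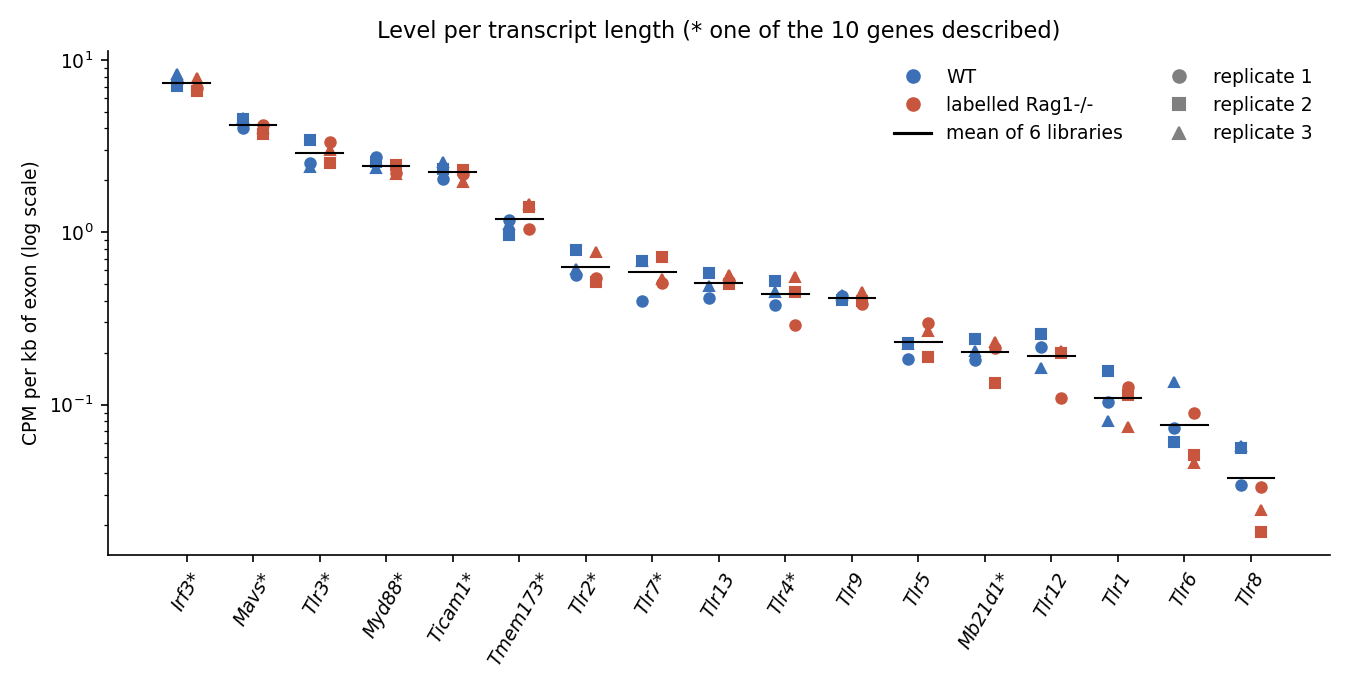
Level per kilobase of exon (log scale) of the 10 genes, marked by an asterisk, and of the other Toll-like receptors in the table, in each of the 6 libraries (WT blue, labelled Rag1-/- red); black lines give the mean of 6. Irf3, Mavs and Tlr3 head the order, and the cytosolic DNA sensor Mb21d1 lies among the low receptors at 0.201 CPM per kb.

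The spread between libraries was set beside the error of counting. Divided by the CPM of 1 read, all 60 values of the 10 genes came within 0.1 of a whole read, from 17 reads for Mb21d1 to 665 for Irf3. Counting alone would give a coefficient of variation of 17.2% in WT and 20.2% in the libraries labelled Rag1-/- for Mb21d1, where 14.1% and 27.3% were seen. For Tlr3 counting would give 4.57% and 4.81%, and the libraries varied by 20.2% and 13.7%. In each group 9 of the 10 genes varied by more than counting alone gives, the exceptions being Mb21d1 in WT and Myd88, at 7.24% against 8.15%, in the libraries labelled Rag1-/-. These counting values cover counting error only.

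Beside the 10 genes, 110 other genes of the sensing pathways were listed by role, of which 103 were in the table and 100 could be tested. At an unadjusted p of at most 0.05, 28 of the 100 were lower in the group labelled Rag1-/- and 2 were higher, against 9.29% and 2.27% of all genes, and 32 were lower and 7 higher without overlap, against 14.4% and 3.98%. The balance moved with the scaling: at the same p, 22 were lower and 4 higher with median-of-ratios rescaling, where 4.38% and 4.7% of all genes were, and 18 were lower and 5 higher with quantile normalization, where 3.82% and 5.1% of all genes were. Of the 30 genes, 15 passed the unadjusted threshold under every alternative run and 15 missed it under at least 1, of which 12 missed it with the term for high Xist. Over all 100 genes tested the median log2 fold change was -0.10, as for the 10 genes.

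None of the 7 other Toll-like receptors tested passed that threshold, with a median of -0.08. Of the 10 coreceptors and chaperones that Toll-like receptors need, 1 passed: Lbp, which carries lipopolysaccharide, was at 7.05 ± 0.441 CPM (SD, n = 3) in WT and at 5.6 ± 0.42 CPM in the libraries labelled Rag1-/-, but missed the threshold with the term for high Xist (unadjusted p = 0.117, limma-trend). Among 21 adaptors and signalling enzymes, Trim25, Ikbkg and Tab3 were lower and Traf3 was higher, with a list median of -0.03. Ikbkg and Tab3 encode parts of the kinase complexes that activate NF-kB, and both are X-linked, in groups that differed in the makeup of the sexes. They missed the threshold under 6 and 8 of 15 alternatives, both rescalings and the term for high Xist among them. Trim25 and Traf3 passed it under all 15. Trim25, the ubiquitin ligase that assists RIG-I, had a log2 fold change of -0.44 (SE 0.09), and Traf3, which links MAVS and TRIF to the kinases of IRF3, one of 0.21 (SE 0.05). None of these had an adjusted p under 0.05 (limma-trend).

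Of 12 cytosolic sensors tested, some of which act upstream of MAVS or STING, 4 passed the unadjusted threshold, all lower. These were Ddx58, encoding RIG-I, at a log2 fold change of -0.49 (SE 0.12), and Ifih1, encoding MDA5, at -0.49 (SE 0.14). The others were Ifi204, a DNA-binding protein, at -0.95 (SE 0.29), and the helicase gene Dhx9 at -0.11 (SE 0.05). Ddx58 was at 5.4, 6.48 and 5.49 CPM in WT brainstem and at 4.3, 3.68 and 4.33 CPM in brainstem labelled Rag1-/-, with no overlap. The adjusted p-values of these 4 genes were between 0.300 and 0.423 (limma-trend), so none passed over all genes. With the term for high Xist, Ifih1 and Ifi204 missed the unadjusted threshold (unadjusted p = 0.0851 and 0.125, limma-trend), while Ddx58 passed it under every alternative. Dhx9 missed it with median-of-ratios rescaling (unadjusted p = 0.175), quantile normalization, no trend or the replicate block (unadjusted p = 0.0559), and when any library other than Rag1-/- replicate 3 was left out (unadjusted p = 0.0512 to 0.134, limma-trend).

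Among 12 transcription factors, 4 passed the unadjusted threshold, all lower. Irf7, the interferon-inducible relative of Irf3, was at 5.76, 5.1 and 4.57 CPM in WT brainstem and at 3.03, 2.5 and 3.1 CPM in brainstem labelled Rag1-/-. The groups did not overlap, and the log2 fold change was -0.82 (SE 0.13, unadjusted p = 0.000191, adjusted p = 0.165, limma-trend). Irf9 and Stat2, which act downstream of the interferon receptor, had log2 fold changes of -0.47 and -0.31, also without overlap. The other 8 factors did not pass.

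**Figure D3:**
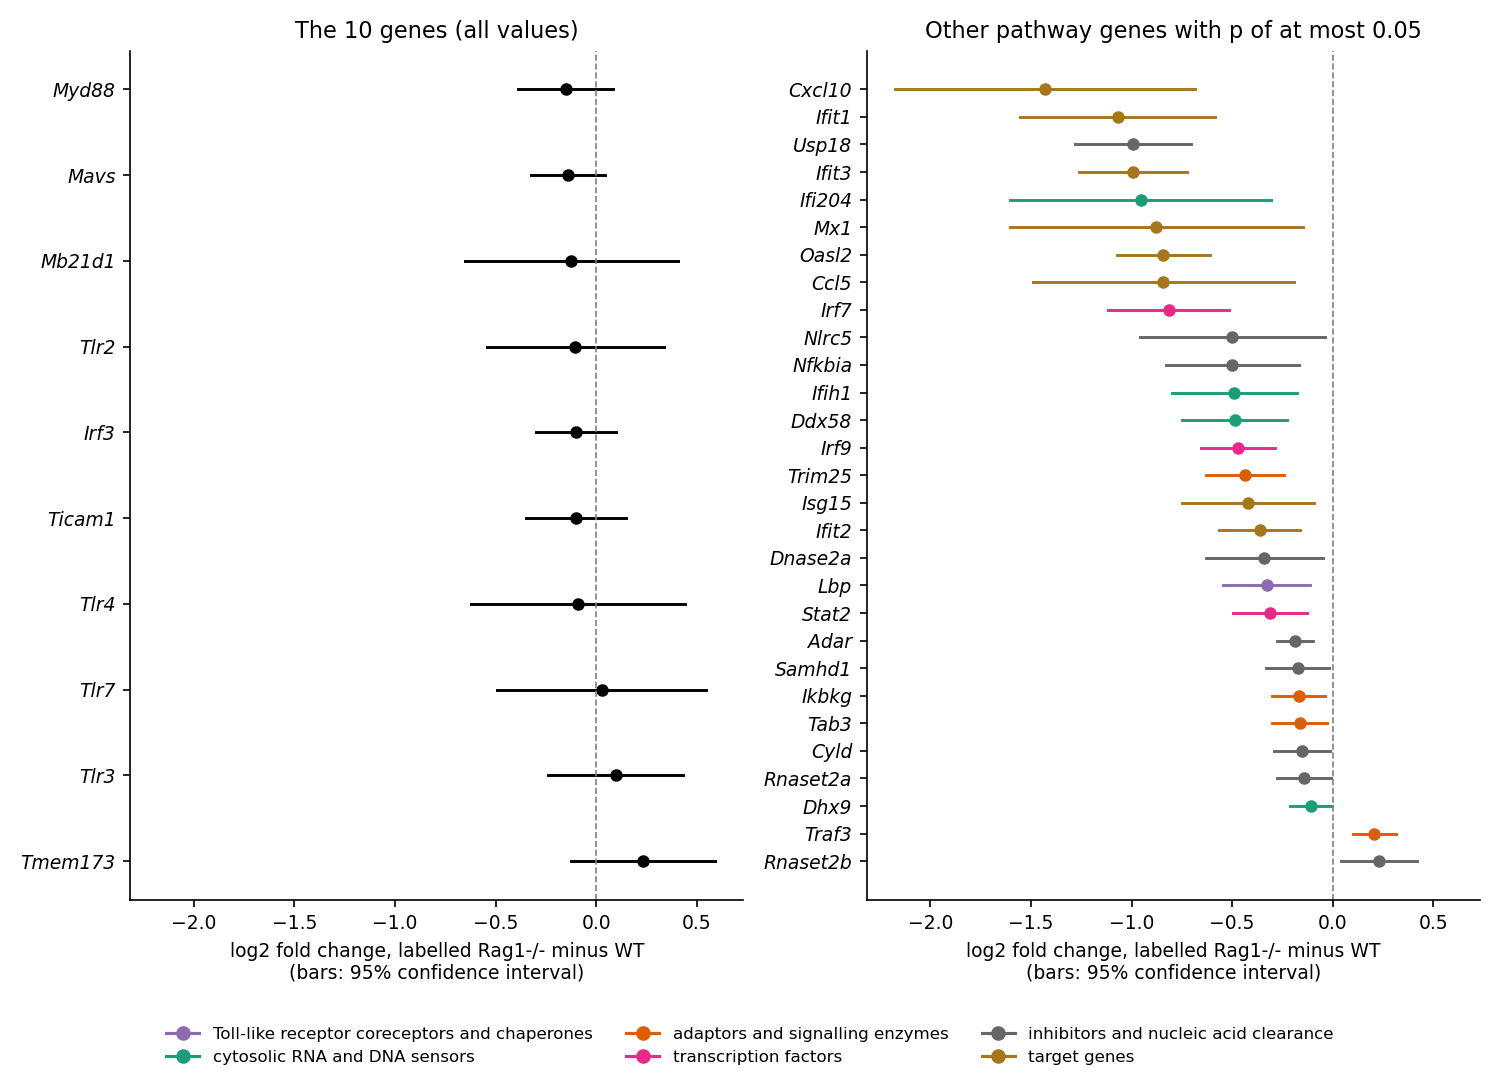
Log2 fold changes (horizontal axis, libraries labelled Rag1-/- minus WT) with 95% confidence intervals from limma-trend, for the 10 genes on the left and for 29 other pathway genes that passed the unadjusted threshold on the right, coloured by role. All 10 intervals on the left cross 0; those on the right do not because they were selected by p, and 27 of them lie below 0.

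Of 22 target genes listed, 16 were in the table and 13 could be tested. Ifit3, an interferon-induced antiviral gene, was at 15.3, 16.8 and 14.2 CPM in WT brainstem and at 6.6, 8.99 and 7.61 CPM in brainstem labelled Rag1-/-. Oasl2, a member of the oligoadenylate synthetase family, was at 6.91, 8.03 and 6.84 CPM in WT and at 4.07, 3.77 and 4.16 CPM in the other group. Both fell (log2 fold changes -0.99, SE 0.12, and -0.84, SE 0.10, each with an adjusted p of 0.0443, limma-trend), with no overlap. These calls were lost under 13 of 15 alternative settings for Ifit3 and 14 of 15 for Oasl2, with adjusted p-values between 0.0281 and 0.339. With 1 library left out, Ifit3 passed without WT replicate 3 (adjusted p = 0.0281) or Rag1-/- replicate 2 (0.0356) and Oasl2 without WT replicate 3 (0.034), and each missed the threshold in every other such fit (limma-trend).

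Besides Ifit3 and Oasl2, Cxcl10, Ccl5, Isg15, Ifit1, Ifit2 and Mx1 passed the unadjusted threshold, all lower, and the list median was -0.56. Cxcl10, a chemokine that attracts T cells, had 6 to 68 reads, and Mx1, an antiviral gene, had 4.25 to 25.1. Mx1 missed the threshold with the term for high Xist (unadjusted p = 0.365, limma-trend), with quantile normalization and without WT replicate 1 or Rag1-/- replicate 2. Isg15 missed it with that term (unadjusted p = 0.144) and without WT replicate 2 or Rag1-/- replicate 1, and Ccl5 without WT replicate 2 or 3 (unadjusted p = 0.0696 and 0.0558, limma-trend). Cxcl10, Ifit1 and Ifit2 passed it under every alternative run. Tnf, Il1b and Cxcl2, targets of the MyD88 branch, fell under the filter on low values. Ifnb1, Il6 and Il12b had no row in the files used here. Of 25 inhibitors and nucleic acid clearance genes, 8 were lower (Usp18, Nfkbia, Nlrc5, Dnase2a, Adar, Samhd1, Cyld and Rnaset2a) and 1 higher. Usp18, Nfkbia and Adar passed the unadjusted threshold under all 15 alternatives. Cyld missed it under 9 of 15, Rnaset2a under 8, Samhd1 under 7, Dnase2a under 6 and Rnaset2b under 4, and Nlrc5 missed it under 8 of 14 (unadjusted p up to 0.342, limma-trend). Nfkbia, which holds NF-kB in the cytoplasm and is also its target, had a log2 fold change of -0.50 (SE 0.15), and Adar, which edits double-stranded RNA, one of -0.19 (SE 0.04). Usp18, which restrains signalling from the interferon receptor, had the smallest p of them (log2 fold change -0.99, SE 0.13, adjusted p = 0.0566, limma-trend). Its adjusted p was 0.0473 with a pseudocount of 1 (limma-trend). With the term for high Xist the log2 fold change of Nfkbia was -0.83. That contrast rests on WT replicate 3 alone, the highest Nfkbia library, at 45.1 CPM against 29.6 and 34.3 CPM in WT replicates 1 and 2. Rnaset2a was lower and its near-identical copy Rnaset2b higher, so their values are uncertain. Unlike the 10 genes, Ifi204, Ifit1, Ifit3 and Mx1 came to read numbers that were not whole.

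**Figure D4:**
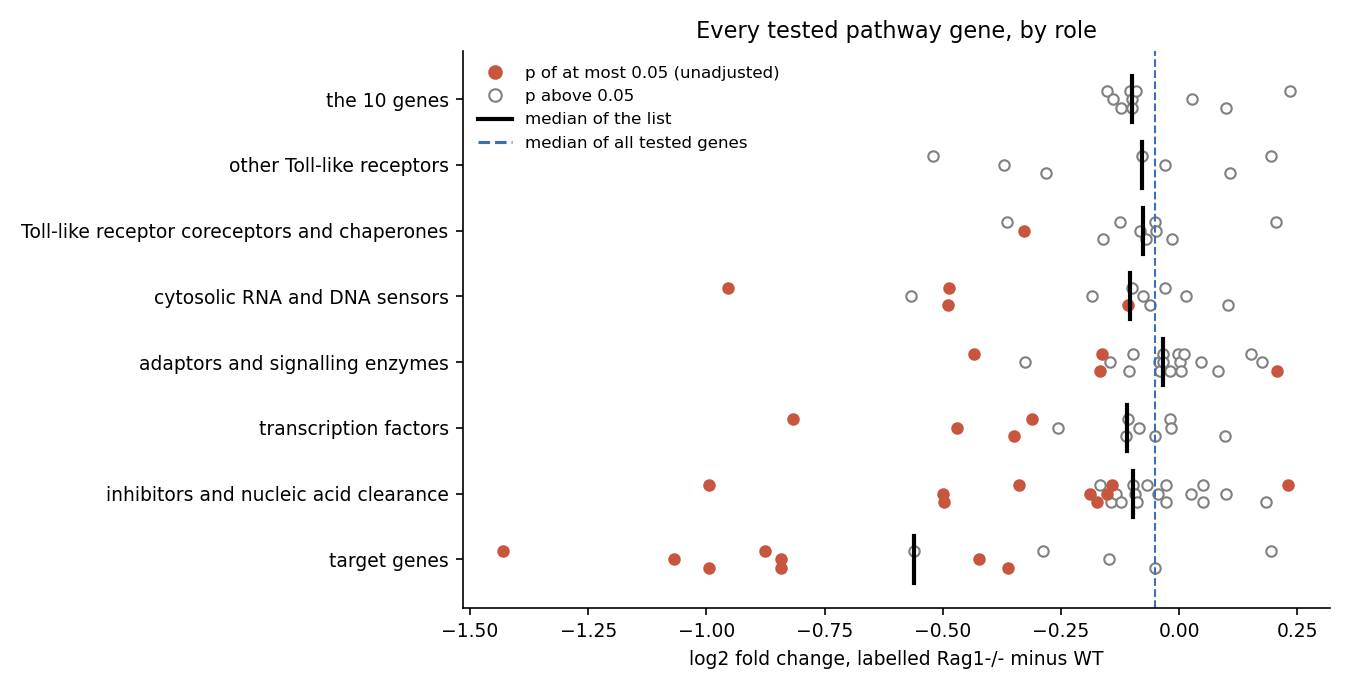
Log2 fold change (libraries labelled Rag1-/- minus WT) of every tested gene, by role; red points passed the unadjusted threshold of 0.05 (limma-trend), black lines give each list's median and the dashed line the median of all genes tested, -0.05. The 10 genes lie between -0.15 and 0.23 with no red point, and the target genes have the lowest median, at -0.56.

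Promoters of 3 target genes that were lower and hold the same motif are shown for comparison with Myd88, with matches on either strand in capitals. They do not stand for all lower genes: the promoters of Oasl2, Ifit2, Irf7 and Irf9, also lower, held no match. In Isg15 3 matches overlap, and in Ifit3 both matches are on the opposite strand and read as their reverse complement.
Cxcl10, chr5:92349040-92349139, minus strand: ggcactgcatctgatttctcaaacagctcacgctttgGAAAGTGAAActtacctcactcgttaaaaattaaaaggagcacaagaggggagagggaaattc
Isg15, chr4:156200836-156200935, minus strand: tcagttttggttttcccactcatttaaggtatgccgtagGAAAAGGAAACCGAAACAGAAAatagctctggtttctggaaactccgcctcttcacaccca
Ifit3, chr19:34583345-34583444, plus strand: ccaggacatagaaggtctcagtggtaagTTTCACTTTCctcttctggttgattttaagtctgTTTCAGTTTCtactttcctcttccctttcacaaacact
The motif was in 7 of the 29 promoters of pathway genes that were lower at an unadjusted p of at most 0.05 (21 genes with a promoter entry), and in 5 of the 76 promoters of the other pathway genes tested. The promoters of Irf3, Mavs, Mb21d1, Ticam1, Tlr2 and Tlr3 held no match to it in this window, which says nothing about the factor. No entry was found for Tlr4, Tlr7 and Tmem173.

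Sensors were set against the adaptor they use, and Irf7 against Irf3, as a ratio of CPM within each library, which does not depend on the scaling of the library. Of 9 ratios, 3 were lower in the group labelled Rag1-/- with no overlap. Irf7 over Irf3 was 0.336 ± 0.0577 (SD, n = 3) in WT and 0.2 ± 0.016 in the other group. Ddx58 over Mavs was 0.426 ± 0.0376 against 0.333 ± 0.0138, and Ifi204 over Tmem173 was 0.247 ± 0.119 against 0.0863 ± 0.0229. For each of the 3 the two-sided exact permutation p was 0.1, the smallest this design allows, and 0.3 after Benjamini-Hochberg adjustment over the 9 ratios, so none passed.

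The other 6 ratios overlapped between the groups. Tlr2, Tlr4 and Tlr7 over Myd88 had means of 0.397, 0.371 and 0.469 in WT and of 0.414, 0.394 and 0.513 in the libraries labelled Rag1-/-. Tlr3 over Ticam1 was 1.79 ± 0.391 against 2.05 ± 0.367, and Mb21d1 over Tmem173 was 0.343 ± 0.0856 against 0.27 ± 0.0979 (SD, n = 3 each). Ifih1 over Mavs was 0.375 ± 0.0502 against 0.295 ± 0.0606, with 1 library labelled Rag1-/- above the lowest WT library.

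**Figure D5:**
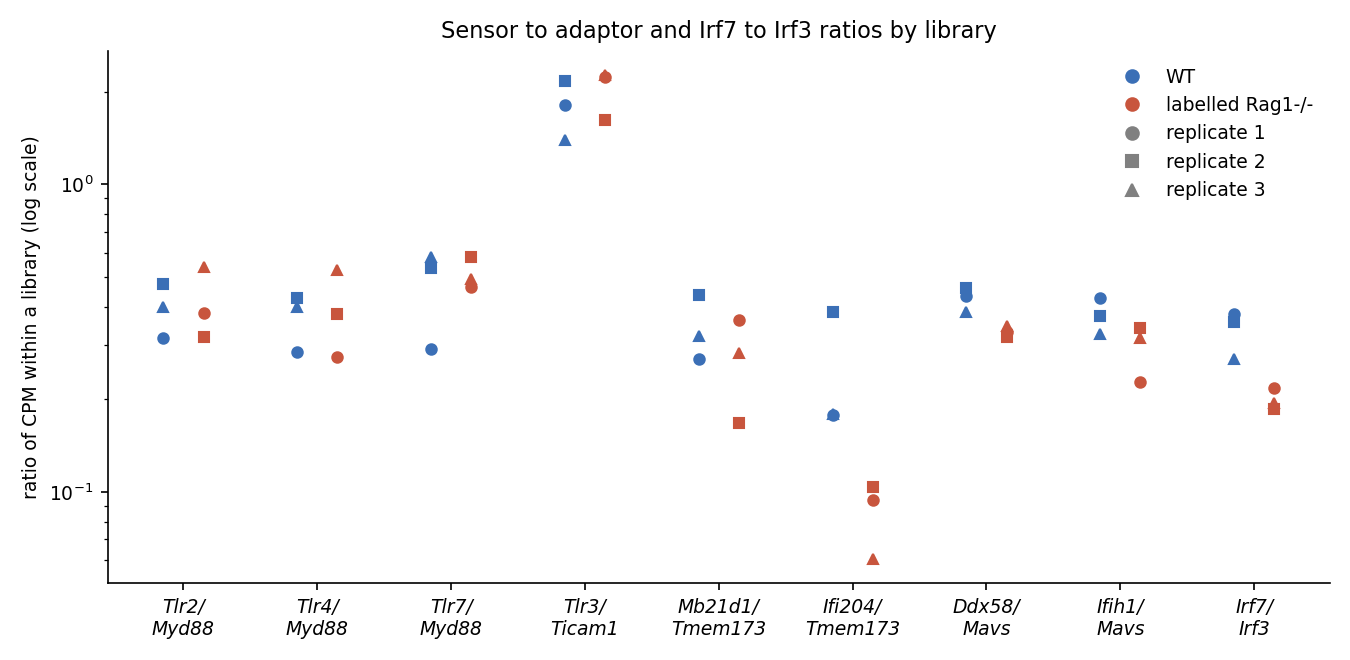
Ratio of CPM of 2 genes within a library (log scale) for 9 pairs, with WT in blue, the libraries labelled Rag1-/- in red and symbols for the replicate number. The ratios of Ifi204 to Tmem173, Ddx58 to Mavs and Irf7 to Irf3 do not overlap between the groups; the other 6 do.

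Cell type markers were read beside these values, since in whole tissue fewer cells of a type and less RNA per cell cannot be told apart. None of 12 microglial markers passed the unadjusted threshold, their median log2 fold change was -0.04, and their summed level was 338 to 373 CPM in WT and 337 to 363 CPM in the libraries labelled Rag1-/-. Of 7 astrocyte markers 1 passed, the water channel gene Aqp4, which was higher (log2 fold change 0.185, unadjusted p = 0.0185, limma-trend), and the list median was 0.04. Their summed level was 3080 to 3280 CPM in WT and 3350 to 3420 CPM in the other group, with no overlap. The largest part of this sum came from 1 gene, the only 1 of the 7 without overlap. Of the 7 log2 fold changes, 2 were below 0. Of 7 border macrophage and monocyte markers 1 passed, Ly6c2, which was lower (log2 fold change -1.10, unadjusted p = 0.0207, limma-trend), the list median was -0.16, and the summed levels overlapped (7.65 to 11 CPM against 7.59 to 8.59 CPM). All 6 oligodendrocyte markers were higher at that threshold (median 0.26, summed level 18700 to 21800 CPM against 24200 to 25600 CPM). Of 7 tested marrow granulocyte markers 5 were lower, with summed levels of 5.62 to 18.5 CPM in WT and 3.41 to 6.09 CPM in the other group, where Elane was at the lowest value of the table in 2 libraries. Neither T cell markers (3 tested) nor B cell markers (3 tested) passed, and Cd3e and Ms4a1 were at that lowest value in at least 1 library. The part that these cell types have in the values of the 10 genes was not tested.

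For the 3 genes with the smallest p, the genes whose log2 levels followed theirs most closely over the 6 libraries were named, as a description. Mavs was followed by Ap4b1, Ccdc3 and Fsd2 (Pearson's r 0.996, 0.995 and 0.994). Myd88 was followed by Wapl, Agfg1 and Golph3l (0.990, 0.988 and 0.988). For Tmem173 they were 9530027J09Rik, Sox3 and Mpzl3 (0.995, 0.969 and 0.969). These are the highest values among all genes tested over 6 points that share a library, so their size is set by the choice.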

How the data were processed

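Total RNA from snap-frozen brainstem of 3 mice of each genotype was sequenced on an Illumina HiSeq. Per the labels and the study's methods, the authors used bcl2fastq and STAR 2.5.3a, aligned to mm10, counted RefSeq transcripts in Partek Flow and deposited gene values as CPM, in which the lowest value is 0.0001. Strandedness and any filter before deposit are not given in the sources used here. The methods name limma-trend with a p of at most 0.05 and a filter on the size of the fold, and state no adjustment of p; no fold filter was used here.

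Here genes whose mean over the libraries reached 0.1 CPM were tested on the log2(CPM + 0.1) scale with limma-trend (limma 3.58.1, R 4.3.3) on genotype in all 6 libraries, with Benjamini-Hochberg adjustment over all genes tested; the fit was tested on simulated data. The p-values measure the spread between mice. For single genes (in R) and ratios (scipy 1.17.1) an exact permutation test, two-sided, was used. The reads behind a value were estimated from the step between low values. Between 85.1% and 86.6% of low values came within 0.1 of a whole read, so no test on counts was run. Exon lengths and overlaps are from GENCODE vM21, promoters from RefSeq, and gene ends are 1 base before the deposited stop, as in 70.9% of 10267 genes with a RefSeq start.

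All 10 genes are given whatever their values, with other pathway genes at an unadjusted p of at most 0.05, X-linked Toll-like receptors, Rag1 and Xist, and for the 3 genes with the smallest p the 3 tested genes of highest Pearson correlation. The gene lists, markers and settings were chosen with earlier results of these data known. Alternatives were other pseudocounts, filters, scalings and variance models, a replicate block, a term for high Xist, and leaving out each library. Certain pathway and marker genes are counted in the lists but not reported singly here.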

Additional observations from a re-analysis of the deposited data

How the results depend on the processing

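The count of the 10 genes at an unadjusted p of at most 0.05 was 0 in 13 of 15 alternative settings and ran from 0 to 1 when each library was left out in turn (Mavs without WT replicate 1, Tmem173 without Rag1-/- replicate 1). The count without overlap, recomputed under settings chosen after the data were seen, stayed at 0 with median-of-ratios or quantile scaling and ran from 1 to 2 with 1 library left out, where the smaller group makes separation easier. The count of other pathway genes, 30, lay between 22 and 33 under every alternative, with 18 lower and 5 higher under quantile normalization.

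Of the 149 alternative log2 fold changes of the 10 genes, 8 turned in direction, none past a threshold. Tlr4 was 0.0194 under quantile normalization and ran from -0.283 to 0.152 with 1 library left out. Tlr7 was -0.22 with the term for high Xist and ran from -0.22 to 0.151 with 1 library left out. Such ranges were -0.271 to 0.0304 for Tlr2, -0.259 to 0.0929 for Mb21d1 and -0.00882 to 0.223 for Tlr13. With no change of sign they were 0.00172 to 0.256 for Tlr3, -0.181 to -0.0249 for Ticam1, -0.171 to -0.0339 for Irf3, -0.21 to -0.0999 for Myd88, -0.204 to -0.0926 for Mavs and 0.151 to 0.38 for Tmem173. The sign of Tlr4 turned without WT replicate 2 (0.017) or Rag1-/- replicate 1, that of Tlr7 without WT replicate 1 or Rag1-/- replicate 2 (-0.12), that of Tlr2 without WT replicate 2, that of Mb21d1 without Rag1-/- replicate 2, and that of Tlr13 without WT replicate 1.

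Over all genes, 8 passed an adjusted p under 0.05, against 4 with a pseudocount of 0.01, 4 with no filter, 4 when a mean of 1 CPM was required, 5 under quantile scaling, 2 without trend, and 2 to 24 with 1 library left out (24 without WT replicate 3). With the term for high Xist it was 134, of which 108 were lower and 26 higher. With a replicate block it was 3, and 24 other pathway genes and none of the 10 passed the unadjusted threshold. The correlations of deviations between libraries with the same replicate number were 0.0926, -0.22 and -0.0183, and only replicate number 1 matched its own number best, so these libraries share only a number. The causes of these shifts were not tested.

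Mb21d1 was not tested when a mean of 1 CPM was required. Of the 10 genes Mb21d1 had the fewest reads, 17 to 45, and no setting can give an exact permutation p below 0.1.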
